A study of Rattus norvegicus with 38 samples.

Results

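Expression of 35 genes that run the cell cycle and copy DNA was followed in rat lung after cigarette smoke. The genes are the measured members of a list of 38, and 14217 genes were measured in all. A gene was taken from the probe sets annotated with its symbol and no other, and the probe set with the highest mean over all arrays stood for it. Rrm2 was found only on probe sets with several symbols, and Tpx2 and Nek2 on none of the probe sets used, so these 3 were not analysed here. The lungs came from 38 female N:NIH rats, 34 weeks old, of 2 lines bred for a high (HCR, high capacity runner) or a low (LCR, low capacity runner) inborn capacity for exercise. The groups were 12 HCR smoke animals, which breathed cigarette smoke on 5 days per week for 12 weeks, 7 HCR sham animals, which breathed room air on the same schedule, 12 LCR smoke animals and 7 LCR sham animals. Each animal gave about 25 mg of lung to 1 Affymetrix Rat Genome 230 2.0 array. The comparisons ask how smoke changed these genes in each line, whether LCR and HCR lungs differed under smoke or under sham, and whether the smoke change depended on the line.

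A cell that divides passes from G1 into S phase, copies its DNA once, and separates the copies in mitosis. D and E cyclins with their kinases drive entry into S phase, the MCM helicase and the clamp PCNA work at the replication forks, and cyclins A and B with the kinase CDK1 open mitosis. The spindle checkpoint then holds back the anaphase promoting complex, a ubiquitin ligase whose action lets the sister chromatids separate. Many mitotic genes carry promoter elements called CHR and CCAAT. In resting cells the DREAM complex represses such genes through CHR, and late in the cycle B-MYB and FOXM1 activate them, whereas many S phase genes carry E2F sites. In a healthy adult lung few cells divide, and cells that can do so include type 2 epithelial cells, endothelial cells, macrophages and lymphocytes.

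Values are intensities on a linear scale. A change is a difference between group means of log2(intensity + 16), given ± its standard error. The added 16 shrinks the changes of dim genes. Changes were tested with limma over all arrays, and each adjusted p is limma's, corrected by Benjamini-Hochberg over the 14217 genes with 0.05 as the threshold. The array medians lay between 44.5 and 50.7, and 14 of the 35 genes had a mean intensity under 50. Of the lung markers, 9 of 10 were measured, and their summed intensity was 45280 to 48120 on HCR smoke arrays, 45010 to 50290 on HCR sham arrays, 45550 to 48160 on LCR smoke arrays and 43560 to 47680 on LCR sham arrays. Markers of heart or skeletal muscle stood high on 6 arrays (HCR smoke 0410, 0414, 0415 and 0417, HCR sham 0433 and LCR sham 0442), so calls that rest on these arrays are given with and without them. Since each group holds a run of adjoining array numbers, any influence of array order is confounded with line and smoke, and these cannot be told apart. In whole lung, a change in the number of cells that express a gene and a change in RNA per cell cannot be told apart.

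In both lines most genes of mitosis rose with smoke, while most genes of G1, DNA replication and nucleotide supply did not pass the test. The second part depends on the centring of the arrays, as given below. In HCR, 21 of the 35 genes rose, 2 fell and 12 did not pass (over all genes, 17.7% rose and 30.4% fell). Their median change was 0.20, against -0.03 over all genes. In LCR, 24 of the 35 genes rose, none fell and 11 did not pass (over all genes, 22.7% rose and 27.9% fell), with a median change of 0.36 against -0.01 over all genes. Without the 6 arrays with high muscle markers, 17 rose and 2 fell in HCR, and 23 rose in LCR. Over all 14217 genes 1911 then rose and 3558 fell in HCR, and 3066 rose and 3903 fell in LCR. The split over all genes depends on the centring: 36.8% of the genes called in HCR and 44.8% of those called in LCR were higher. With median-centred arrays these shares of the called genes were 66.8% and 61.9%. Of all 14217 genes, 5165 then rose and 2570 fell in HCR, and 4829 rose and 2978 fell in LCR. Of the 35 members, 28 rose and 1 fell in HCR and 27 rose in LCR with that centring. The 21 genes of mitotic entry, checkpoint and chromosome separation, Mki67 included, had 17 higher and none lower in HCR with a median of 0.37. In LCR 20 of these 21 were higher and none lower, with a median of 0.45. Of the other 14 genes, 4 rose and 2 fell in HCR and 4 rose in LCR, with medians of 0.05 and 0.08. With median-centred arrays, Cdk4, Cdk2, Mcm3, Mcm4 and Mcm6 of these 14 also rose in HCR, and Mcm2, Mcm4 and Mcm6 in LCR. Of the mitotic genes, Foxm1 and Aurkb then also rose in HCR. The contrast in calls between the classes was thus smaller with that centring. Because many of the mitotic genes are dim, a smaller pseudocount of 1 in place of 16 widened the median change of the 35 genes to 0.38 in HCR and 0.51 in LCR, with the same numbers of calls.

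**Figure D1:**
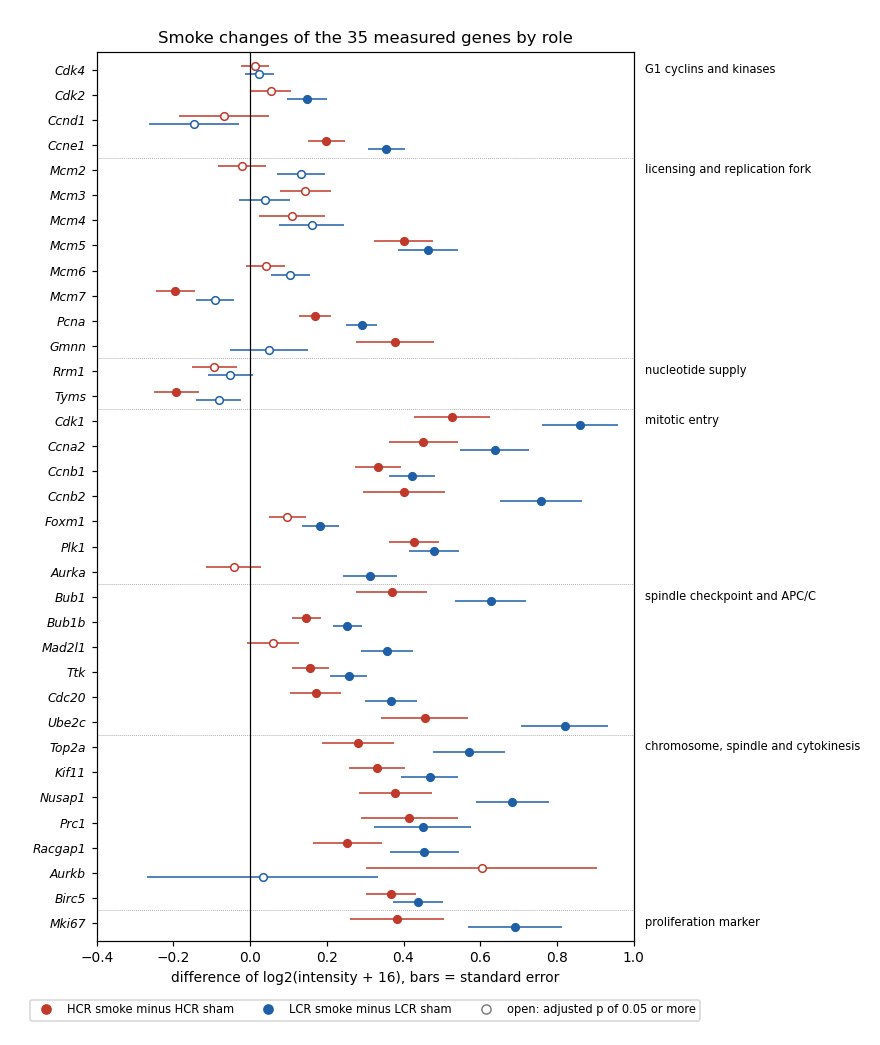
Smoke changes of the 35 measured genes, grouped by role. Points are differences of log2(intensity + 16) between smoke and sham arrays of HCR (red) and LCR (blue), bars are standard errors, and open points had an adjusted p of 0.05 or more. The 21 mitotic genes from Cdk1 down lie mostly to the right of 0, and the 14 genes above them scatter around 0.

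Promoters of the members were read because the mitotic genes and the replication genes are known for different promoter elements. RefSeq's promoter table (build GRCr8, 250 bases before to 50 after each annotated start) held 28 of the 35 genes. Both strands were searched for CHR (TTTGAA or TTCGAA), for the CCAAT box (CCAAT) and for E2F sites (TTTCCCGC, TTTCGCGC, TTTGCCGC or TTTGGCGC). E2F matches on opposite strands can overlap, and both are then counted. Shown are the 3 mitotic and the 3 replication genes with the smallest p for smoke in LCR among those in the table, each read 5′ to 3′ along the gene's own strand, with matches in capitals. Cdk1 lies at chr20:19265043-19265342 on the plus strand, Plk1 at chr1:186147408-186147707 on the plus strand, Nusap1 at chr3:127057045-127057344 on the plus strand, Pcna at chr3:139955771-139956070 on the minus strand, Mcm5 at chr19:13488563-13488862 on the plus strand and Mcm2 at chr4:122918045-122918344 on the minus strand.
Cdk1: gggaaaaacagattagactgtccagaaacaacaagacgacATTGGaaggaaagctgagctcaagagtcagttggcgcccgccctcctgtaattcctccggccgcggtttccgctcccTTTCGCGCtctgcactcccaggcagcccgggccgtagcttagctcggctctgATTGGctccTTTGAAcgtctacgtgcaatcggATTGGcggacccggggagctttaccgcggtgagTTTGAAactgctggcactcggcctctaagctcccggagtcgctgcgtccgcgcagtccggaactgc
Plk1: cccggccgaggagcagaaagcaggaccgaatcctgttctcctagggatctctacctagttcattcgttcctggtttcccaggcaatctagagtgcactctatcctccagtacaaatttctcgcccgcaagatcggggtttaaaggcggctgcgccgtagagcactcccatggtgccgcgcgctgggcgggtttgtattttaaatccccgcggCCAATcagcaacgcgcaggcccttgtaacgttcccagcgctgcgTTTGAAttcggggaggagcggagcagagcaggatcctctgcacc
Nusap1: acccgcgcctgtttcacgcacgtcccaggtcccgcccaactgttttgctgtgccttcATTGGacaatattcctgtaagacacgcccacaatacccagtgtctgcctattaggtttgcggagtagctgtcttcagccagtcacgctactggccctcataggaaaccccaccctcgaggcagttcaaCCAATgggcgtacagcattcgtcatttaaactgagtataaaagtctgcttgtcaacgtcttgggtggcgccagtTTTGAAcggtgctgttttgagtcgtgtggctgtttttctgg
Pcna: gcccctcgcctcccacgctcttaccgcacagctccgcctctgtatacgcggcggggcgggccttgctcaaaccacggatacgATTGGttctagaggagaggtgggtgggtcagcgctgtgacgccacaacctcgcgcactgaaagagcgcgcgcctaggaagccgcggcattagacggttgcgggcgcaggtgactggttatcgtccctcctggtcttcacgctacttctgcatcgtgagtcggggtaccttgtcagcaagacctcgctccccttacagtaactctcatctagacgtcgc
Mcm5: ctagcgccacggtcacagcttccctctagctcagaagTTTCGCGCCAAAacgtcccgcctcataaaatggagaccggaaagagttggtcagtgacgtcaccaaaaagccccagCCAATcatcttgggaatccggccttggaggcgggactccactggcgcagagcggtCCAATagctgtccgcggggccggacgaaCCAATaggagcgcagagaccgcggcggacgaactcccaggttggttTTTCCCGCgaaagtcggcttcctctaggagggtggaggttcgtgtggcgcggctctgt
Mcm2: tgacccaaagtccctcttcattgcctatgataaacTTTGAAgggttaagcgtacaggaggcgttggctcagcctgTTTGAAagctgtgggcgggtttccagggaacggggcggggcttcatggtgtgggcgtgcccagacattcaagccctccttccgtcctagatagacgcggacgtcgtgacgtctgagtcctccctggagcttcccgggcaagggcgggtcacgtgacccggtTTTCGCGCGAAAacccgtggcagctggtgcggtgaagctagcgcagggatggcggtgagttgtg
The Cdk1 promoter holds 2 CHR matches, 3 CCAAT boxes and 1 E2F match, Plk1 holds 1 CHR match and 1 CCAAT box, and Nusap1 holds 1 CHR match and 2 CCAAT boxes. In Plk1 and Nusap1 the CHR match lies just after the annotated start, 7 and 10 bases along. The Pcna window has a single CCAAT box. Mcm5 has 3 CCAAT boxes and 3 E2F matches, 2 of them overlapping, and Mcm2 has 2 CHR matches far upstream and 2 overlapping E2F matches next to the start.

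Among the 16 mitotic genes in the table, 12 (75.0%) held a CHR match, 12 (75.0%) a CCAAT box and 10 (62.5%) both, while 1 (6.2%), Cdk1, held an E2F match. Among the 12 genes of G1, replication and nucleotide supply, 3 (25.0%) held CHR, 8 (66.7%) CCAAT, 2 (16.7%) both, and 7 (58.3%) E2F. Over the 33469 promoters of that length in the table the shares were 19.7% for CHR, 37.5% for CCAAT, 8.0% for both and 2.1% for E2F. The E2F matches were in Mcm2, Mcm3, Mcm5, Mcm6, Mcm7, Gmnn and Tyms, and Cdk4, Cdk2, Ccne1, Pcna and Rrm1 had none in this window. Aurka and Bub1, both mitotic and both higher with smoke in LCR, had none of the 3 motifs in this window. A match describes only the letters of the window.

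**Figure D2:**
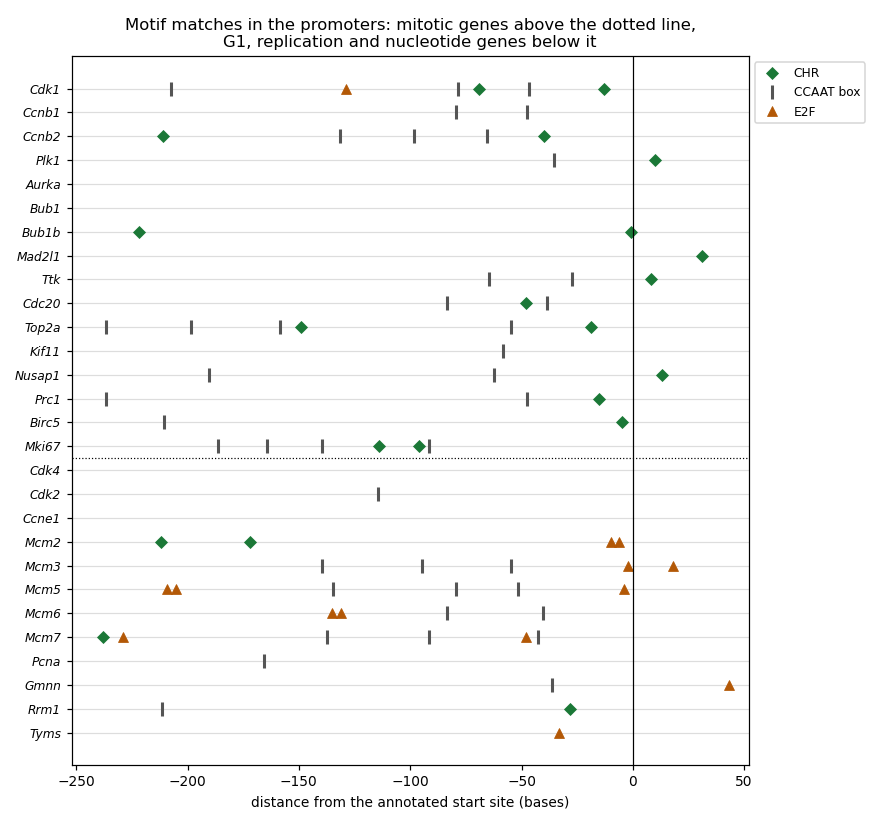
Matches to CHR (diamonds), the CCAAT box (bars) and E2F (triangles) in the promoters of 28 members, by distance in bases from the annotated start. CHR matches of the mitotic genes above the dotted line lie mostly near the start, and E2F matches appear in 7 of the 12 genes below the line and 1 of the 16 above it.

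Of the G1 genes, cyclin E1 rose in both lines and cyclin D1 and Cdk4 passed in neither. Ccne1, whose cyclin starts S phase with CDK2, had a lowest, median and highest intensity of 16.8, 22.1 and 27.7 on HCR smoke arrays, against 16.5, 17.3 and 18.1 on HCR sham arrays. The values were 19.3, 25.0 and 31.4 on LCR smoke arrays, against 13.3, 16.5 and 17.9 on LCR sham arrays. Of the HCR smoke arrays 11 of 12 lay above every HCR sham array, and all 12 LCR smoke arrays lay above every LCR sham array. The change was 0.20 ± 0.05 in HCR (limma, adjusted p = 0.000973) and 0.36 ± 0.05 in LCR (limma, adjusted p = 2.19e-07). Cdk2, the kinase partner of cyclins E and A, had medians of 143.7 on HCR smoke and 145.7 on HCR sham arrays, and of 141.0 on LCR smoke and 124.4 on LCR sham arrays. Its change was 0.15 ± 0.05 in LCR (limma, adjusted p = 0.0181) and 0.06 ± 0.05 in HCR (adjusted p = 0.4). The LCR call of Cdk2 did not pass without LCR sham 0442 or without LCR sham 0443 (adjusted p = 0.0552 and 0.0622), nor without the 6 arrays with high muscle markers (0.13, adjusted p = 0.0569). Over the alternatives its adjusted p ran from 0.00275 to 0.601. A second Cdk2 probe set did not pass in LCR (0.02 ± 0.06, adjusted p over all probe sets = 0.814).

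Cyclin D1, which answers growth signals and binds CDK4, did not pass in either line. Ccnd1 ranged from 735.8 to 1803 with a median of 1397 on HCR smoke arrays, against 857.4 to 1790 with a median of 1666 on HCR sham arrays. In LCR it ranged from 1410 to 1778 with a median of 1668 on smoke arrays, against 1657 to 2140 with a median of 1785 on sham arrays. None of the 12 LCR smoke arrays lay above the LCR sham mean, yet the change of -0.15 ± 0.12 did not pass (limma, adjusted p = 0.295). In a fit of the 2 LCR groups alone it did (adjusted p = 0.0292), and over the alternatives the adjusted p ran from 0.0292 to 0.849. Another Ccnd1 probe set fell in LCR by 0.22 (limma over all probe sets, adjusted p = 0.00219), and the remaining one did not pass (-0.09 ± 0.11, adjusted p = 0.524). Cdk4 had medians of 557.5 on HCR smoke and 543.1 on HCR sham arrays, and of 599.0 on LCR smoke and 587.2 on LCR sham arrays, with changes of 0.01 ± 0.04 and 0.02 ± 0.04 (limma, adjusted p = 0.791 and 0.61).

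The licensing and fork genes did not move as a block. In HCR 3 of 8 rose and 1 fell (over all genes, 17.7% rose and 30.4% fell). In LCR 2 of 8 rose (25.0%), a share near the 22.7% of all genes, and none fell (27.9% of all genes). Pcna, the sliding clamp of DNA polymerases, which also serves DNA repair, had a lowest, median and highest intensity of 1100, 1218 and 1312 on HCR smoke arrays, against 982.4, 1086 and 1131 on HCR sham arrays. It had 1132, 1299 and 1445 on LCR smoke arrays, against 980.8, 1035 and 1078 on LCR sham arrays. All LCR smoke arrays lay above all LCR sham arrays, and 10 of 12 HCR smoke arrays above all HCR sham arrays. The change was 0.17 ± 0.04 in HCR (limma, adjusted p = 0.00113) and 0.29 ± 0.04 in LCR (adjusted p = 4.95e-07).

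The MCM genes encode the subunits of one helicase ring, and they differed in what smoke did to them. Mcm5 had a lowest, median and highest intensity of 55.0, 60.0 and 81.9 on HCR smoke arrays, against 34.5, 45.0 and 55.0 on HCR sham arrays. It had 53.3, 69.5 and 94.1 on LCR smoke arrays, against 37.0, 46.6 and 57.6 on LCR sham arrays. All smoke arrays lay above the sham mean of their line. Mcm5 rose by 0.40 ± 0.08 in HCR (limma, adjusted p = 9.02e-05) and by 0.46 ± 0.08 in LCR (adjusted p = 8.14e-06). Mcm7 moved the other way in HCR, with 301.3, 339.9 and 410.9 on HCR smoke arrays, against 344.7, 390.9 and 438.5 on HCR sham arrays. Only 1 of 12 HCR smoke arrays lay above the sham mean, and 6 lay below every sham array. Mcm7 fell by 0.20 ± 0.05 on the log2 scale in HCR (limma, adjusted p = 0.00179), and in LCR its change of -0.09 ± 0.05 did not pass (adjusted p = 0.127), with 330.3, 365.3 and 380.7 on LCR smoke arrays against 353.5, 368.0 and 458.1 on LCR sham arrays. With each array's interquartile range in the fit, the Mcm7 call in HCR did not pass (-0.09, limma, adjusted p = 0.325). That range was at most 2.937 on HCR smoke arrays and at least 2.941 on HCR sham arrays, so it separates the HCR groups. Calls over all genes in HCR fell to 3024 with it, against 6830 without. Smoke and this covariate therefore cannot be told apart in HCR, here and for each HCR call below.

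The other 4 MCM genes passed in neither line. Mcm2, Mcm3, Mcm4 and Mcm6 changed by -0.02 ± 0.06, 0.14 ± 0.07, 0.11 ± 0.09 and 0.04 ± 0.05 in HCR, with adjusted p from 0.0753 to 0.799. In LCR the changes were 0.13 ± 0.06, 0.04 ± 0.07, 0.16 ± 0.09 and 0.11 ± 0.05, with adjusted p from 0.0687 to 0.655. Their calls depended on the processing: with median-centred arrays, Mcm2, Mcm4 and Mcm6 rose in LCR and Mcm3, Mcm4 and Mcm6 rose in HCR. With the interquartile range in the fit, Mcm2, Mcm4 and Mcm6 rose in both lines. Gmnn, geminin, which keeps origins from being licensed again within a cycle, had a lowest, median and highest intensity of 51.6, 74.7 and 108.5 on HCR smoke arrays, against 41.4, 45.4 and 70.0 on HCR sham arrays. In LCR it had 51.3, 75.5 and 82.9 on smoke arrays, against 56.1, 64.5 and 90.9 on sham arrays. The HCR groups overlapped, with 7 of 12 smoke arrays above every sham array, and no LCR smoke array lay above every LCR sham array. Gmnn rose by 0.38 ± 0.10 in HCR (limma, adjusted p = 0.00273) and did not pass in LCR (0.05 ± 0.10, adjusted p = 0.703), but the difference between the lines did not pass either (-0.33 ± 0.14, adjusted p = 0.207).

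Neither gene of nucleotide supply rose. Tyms, thymidylate synthase, which makes the DNA base precursor dTMP, had a lowest, median and highest intensity of 16.7, 21.6 and 28.9 on HCR smoke arrays, against 23.3, 26.5 and 35.8 on HCR sham arrays. It had 17.3, 21.3 and 28.7 on LCR smoke arrays, against 20.1, 24.1 and 28.0 on LCR sham arrays. On 8 of the 12 HCR smoke arrays Tyms was below every HCR sham array. It fell by 0.19 ± 0.06 on the log2 scale in HCR (limma, adjusted p = 0.00742) and did not pass in LCR (-0.08 ± 0.06, adjusted p = 0.247). The HCR call was lost with median-centred arrays (-0.10, adjusted p = 0.143) and with the interquartile range in the fit (-0.09, adjusted p = 0.447). Rrm1, the large subunit of ribonucleotide reductase, ranged from 99.0 to 140.6 with a median of 122.7 on HCR smoke arrays, against 114.3 to 148.2 with a median of 130.0 on HCR sham arrays. Its range was 102.1 to 146.4 with a median of 130.5 on LCR smoke arrays, against 118.2 to 145.9 with a median of 128.4 on LCR sham arrays, and its changes of -0.09 ± 0.06 and -0.05 ± 0.06 did not pass (limma, adjusted p = 0.189 and 0.478).

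Mitotic entry genes rose in 5 of 7 cases in HCR (17.7% of all genes) and in 7 of 7 in LCR (22.7% of all genes). Cdk1, the kinase that starts mitosis, had a lowest, median and highest intensity of 43.6, 70.1 and 92.1 on HCR smoke arrays, against 34.98, 43.6 and 52.4 on HCR sham arrays. It had 61.0, 84.9 and 115.5 on LCR smoke arrays, against 35.4, 38.3 and 49.8 on LCR sham arrays. The LCR groups did not overlap, and 10 of 12 HCR smoke arrays lay above every HCR sham array. Cdk1, whose promoter with its paired CHR and CCAAT elements is printed above, rose by 0.53 ± 0.10 in HCR (limma, adjusted p = 6.28e-05) and by 0.86 ± 0.10 in LCR (adjusted p = 1.26e-08).

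The cyclins that partner CDK1 rose as well. Ccna2, cyclin A2 of S phase and G2, was dim, at 12.0, 19.3 and 27.0 on HCR smoke arrays, against 6.03, 10.1 and 11.2 on HCR sham arrays. It stood at 15.9, 25.4 and 36.4 on LCR smoke arrays, against 6.39, 10.98 and 13.5 on LCR sham arrays. In both lines every smoke array lay above every sham array, a pattern that 1.05% of all genes showed. Ccna2 rose by 0.45 ± 0.09 in HCR (limma, adjusted p = 0.000105) and by 0.64 ± 0.09 in LCR (adjusted p = 3.88e-07). Ccnb2, cyclin B2, had 30.3, 45.7 and 69.0 on HCR smoke arrays, against 24.6, 31.2 and 36.4 on HCR sham arrays, and 37.2, 52.1 and 86.1 on LCR smoke arrays, against 22.8, 26.3 and 31.8 on LCR sham arrays. The LCR groups were again apart and the HCR groups overlapped. Ccnb2 rose by 0.40 ± 0.11 in HCR (limma, adjusted p = 0.00233) and by 0.76 ± 0.11 in LCR (adjusted p = 3.98e-07), and Ccnb1, cyclin B1, by 0.33 ± 0.06 (adjusted p = 2.77e-05) and 0.42 ± 0.06 (adjusted p = 4.73e-07). Both Ccnb1 probe sets rose in both lines.

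Plk1, the polo kinase of spindle poles and kinetochores, was the most even of these genes between the lines. It had a lowest, median and highest intensity of 51.1, 64.0 and 77.4 on HCR smoke arrays, against 34.7, 43.0 and 50.9 on HCR sham arrays. It had 51.95, 66.0 and 75.1 on LCR smoke arrays, against 34.9, 42.3 and 44.7 on LCR sham arrays. No smoke array overlapped the sham range in either line. Plk1 rose by 0.43 ± 0.07 in HCR (limma, adjusted p = 3.42e-06) and by 0.48 ± 0.07 in LCR (adjusted p = 3.01e-07). Foxm1, the transcription factor of late cell cycle genes, rose in LCR (0.18 ± 0.05, limma, adjusted p = 0.00215) and did not pass in HCR (0.10 ± 0.05, adjusted p = 0.0985). Its second probe set, with a mean intensity of only 6.02, passed in HCR (0.09 ± 0.02, adjusted p over all probe sets = 0.000146) and not in LCR (0.02 ± 0.02, adjusted p = 0.302), so the calls of Foxm1 depend on the probe set. The HCR change of the brighter one passed without HCR sham 0432 (0.13, adjusted p = 0.024) or HCR sham 0436 (0.12, adjusted p just under 0.05) and with median-centred arrays (0.19, adjusted p = 0.00303).

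Aurka, aurora kinase A of the centrosome, was singled out after its values were seen, as the member with the smallest p for a line-dependent smoke change. It had a lowest, median and highest intensity of 39.0, 50.7 and 55.5 on HCR smoke arrays, against 38.9, 52.9 and 62.1 on HCR sham arrays. In LCR it had 45.7, 55.5 and 70.2 on smoke arrays, against 37.8, 43.2 and 44.7 on sham arrays. The HCR smoke arrays lay within the range of the HCR sham arrays, and the LCR groups did not overlap. Aurka rose in LCR (0.31 ± 0.07, limma, adjusted p = 0.000394) and did not pass in HCR (-0.04 ± 0.07, adjusted p = 0.637).

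All 6 genes of the spindle checkpoint and the anaphase promoting complex rose in LCR, and 5 of 6 rose in HCR. Over all genes 22.7% rose in LCR and 17.7% in HCR. Ube2c, the ubiquitin conjugating enzyme of that complex, had a lowest, median and highest intensity of 39.3, 62.6 and 89.3 on HCR smoke arrays, against 35.1, 43.1 and 57.4 on HCR sham arrays. It had 50.4, 79.6 and 122.1 on LCR smoke arrays, against 31.0, 38.7 and 48.8 on LCR sham arrays. The LCR groups were apart, and 10 of 12 HCR smoke arrays exceeded every sham array. Ube2c rose by 0.46 ± 0.11 in HCR (limma, adjusted p = 0.00134) and by 0.82 ± 0.11 in LCR (adjusted p = 3.14e-07).

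Bub1 and Bub1b encode kinetochore proteins that delay anaphase. Bub1 had 26.5, 38.4 and 55.5 on HCR smoke arrays, against 17.9, 25.2 and 28.6 on HCR sham arrays, and 29.8, 36.6 and 56.8 on LCR smoke arrays, against 16.8, 19.0 and 23.1 on LCR sham arrays. The LCR groups did not overlap, and 8 of 12 HCR smoke arrays lay above every sham array. Bub1 rose by 0.37 ± 0.09 in HCR (limma, adjusted p = 0.00133) and by 0.63 ± 0.09 in LCR (adjusted p = 8.74e-07). Bub1b was very dim, at 6.67, 8.15 and 11.2 on HCR smoke arrays, against 4.64, 6.43 and 6.66 on HCR sham arrays, and at 7.43, 9.56 and 13.3 on LCR smoke arrays, against 4.60, 5.67 and 6.57 on LCR sham arrays. No smoke array of either line reached down into the sham range, although in HCR the lowest smoke array and the highest sham array were almost level. Bub1b rose by 0.15 ± 0.04 in HCR (limma, adjusted p = 0.00192) and by 0.25 ± 0.04 in LCR (adjusted p = 1.1e-06), on a scale that compresses values of this size. With the interquartile range in the fit the HCR change was 0.13 and did not pass (adjusted p = 0.0636, and from 4.13e-05 to 0.672 over the alternatives).

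Mad2l1, the MAD2 protein that inhibits CDC20, rose in LCR and not in HCR. It had 27.7, 38.6 and 46.3 on HCR smoke arrays, against 32.1, 36.0 and 38.8 on HCR sham arrays. It had 35.1, 47.6 and 59.6 on LCR smoke arrays, against 31.3, 33.7 and 35.4 on LCR sham arrays. The HCR smoke arrays spread on both sides of the sham arrays, and 11 of 12 LCR smoke arrays lay above every sham array. Its changes were 0.06 ± 0.07 in HCR (limma, adjusted p = 0.491) and 0.36 ± 0.07 in LCR (adjusted p = 4.77e-05). A second Mad2l1 probe set also rose in LCR (0.30 ± 0.07), and the remaining one did not pass (0.03 ± 0.04).

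Cdc20, the activator of the anaphase promoting complex, had 43.6, 60.9 and 72.8 on HCR smoke arrays, against 46.4, 51.4 and 57.6 on HCR sham arrays, and 52.1, 62.7 and 79.3 on LCR smoke arrays, against 42.6, 45.9 and 52.6 on LCR sham arrays. It rose by 0.37 ± 0.07 in LCR (limma, adjusted p = 2.54e-05), with 11 of 12 smoke arrays above all sham arrays. The HCR change of 0.17 ± 0.07 only just passed (adjusted p = 0.0337). It did not pass when any one of 8 arrays was left out (HCR sham 0432, 0433, 0434 or 0439, or HCR smoke 0410, 0412, 0414 or 0415, with adjusted p from 0.0502 to 0.0779), nor without the 6 arrays with high muscle markers (0.08, adjusted p = 0.404), and over all alternatives the adjusted p ran from 0.00113 to 0.94. Of the 5 Cdc20 probe sets, 1 other rose in both lines (0.31 ± 0.05 in HCR and 0.29 ± 0.05 in LCR) and 3 with mean intensities under 8 did not pass. Ttk, the kinase that starts the checkpoint signal, rose by 0.16 ± 0.05 in HCR (limma, adjusted p = 0.00773) and by 0.26 ± 0.05 in LCR (adjusted p = 3.74e-05) at a mean intensity of 9.58. The HCR call of Ttk was lost with quantile normalization (0.11, adjusted p = 0.0946), and over its alternatives the adjusted p ran from 4.95e-05 to 0.995.

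**Figure D3:**
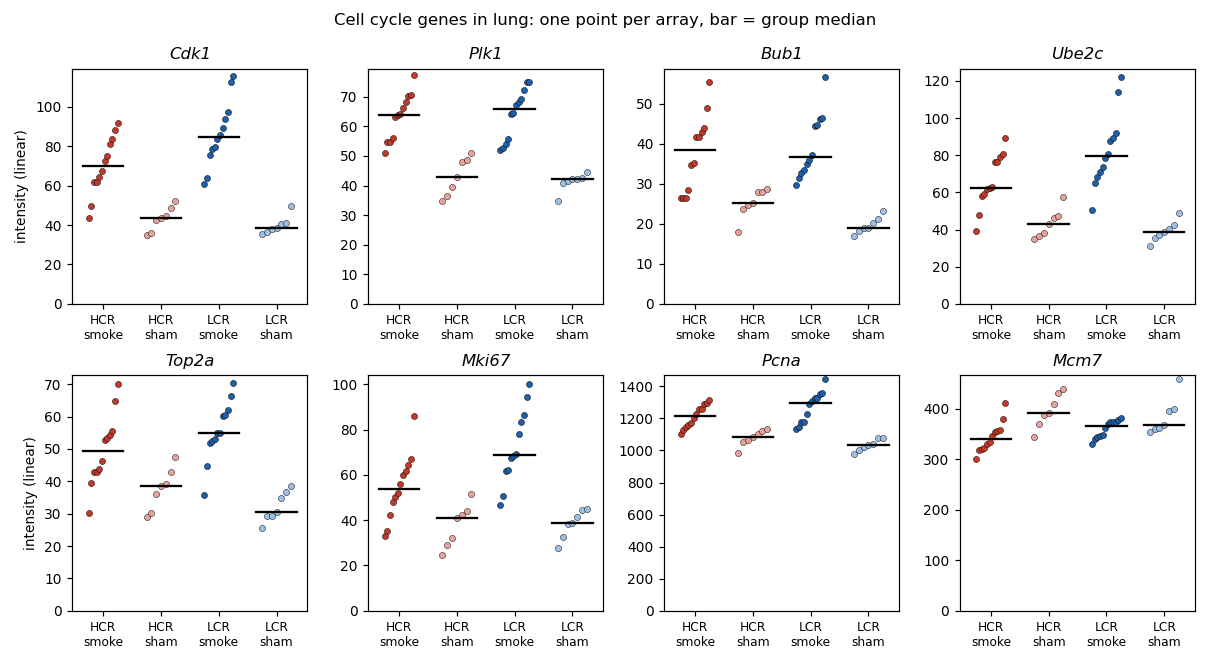
Linear intensity of 8 genes on each array (points) with the group median (bars), each smoke group left of its sham group, HCR in red and LCR in blue. Cdk1, Bub1, Ube2c and Mki67 separate fully in LCR and overlap in HCR, Plk1 separates in both lines, and Mcm7 lies lower on HCR smoke arrays than on HCR sham arrays.

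Of the 7 genes of chromosome structure, spindle and cytokinesis, 6 rose in each line (over all genes, 17.7% rose in HCR and 22.7% in LCR). Nusap1, a spindle microtubule protein, had a lowest, median and highest intensity of 32.8, 48.1 and 70.6 on HCR smoke arrays, against 25.5, 34.3 and 38.4 on HCR sham arrays. It had 39.5, 59.0 and 79.9 on LCR smoke arrays, against 25.6, 31.8 and 34.0 on LCR sham arrays. The LCR groups were apart, and 10 of 12 HCR smoke arrays lay above all sham arrays. Nusap1 rose by 0.38 ± 0.10 in HCR (limma, adjusted p = 0.00146) and by 0.68 ± 0.10 in LCR (adjusted p = 3.32e-07). Its second probe set rose in both lines by nearly the same amount (0.49 ± 0.07 in HCR and 0.49 ± 0.07 in LCR).

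Birc5, survivin, a subunit of the chromosomal passenger complex, had 19.8, 23.5 and 31.2 on HCR smoke arrays, against 12.4, 15.4 and 17.1 on HCR sham arrays, and 17.4, 27.0 and 32.8 on LCR smoke arrays, against 10.3, 14.8 and 18.2 on LCR sham arrays. The groups were apart in HCR, and 11 of 12 LCR smoke arrays lay above all sham arrays. Birc5 rose by 0.37 ± 0.07 in HCR (limma, adjusted p = 2.19e-05) and by 0.44 ± 0.07 in LCR (adjusted p = 9.97e-07). Kif11, the motor that pushes spindle poles apart, had 14.8, 20.4 and 28.3 on HCR smoke arrays, against 9.27, 15.4 and 16.4 on HCR sham arrays, and 18.4, 24.4 and 30.2 on LCR smoke arrays, against 8.43, 13.8 and 18.6 on LCR sham arrays. It rose by 0.33 ± 0.07 in HCR (limma, adjusted p = 0.000418) and by 0.47 ± 0.07 in LCR (adjusted p = 2.81e-06), although its dimmer probe set did not pass in HCR (0.04 ± 0.03).

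Top2a, topoisomerase II alpha, which untangles sister chromatids, had 30.3, 49.4 and 69.9 on HCR smoke arrays, against 29.1, 38.5 and 47.7 on HCR sham arrays. It had 35.7, 54.9 and 70.5 on LCR smoke arrays, against 25.5, 30.4 and 38.4 on LCR sham arrays. Smoke and sham overlapped in both lines, by 6 of 12 HCR smoke arrays and by 1 of 12 LCR smoke arrays. Top2a rose by 0.28 ± 0.09 in HCR (limma, adjusted p = 0.0136) and by 0.57 ± 0.09 in LCR (adjusted p = 5.94e-06), and its second probe set rose by 0.29 ± 0.05 in each line. Without the 6 arrays with high muscle markers the HCR change of the brighter probe set was 0.22 and did not pass (adjusted p = 0.0948), nor did it with the interquartile range in the fit (0.19, adjusted p = 0.283).

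Prc1 and Racgap1, which build the central spindle for cytokinesis, rose in both lines. The changes were 0.42 ± 0.13 in HCR (limma, adjusted p = 0.00744) and 0.45 ± 0.13 in LCR (adjusted p = 0.0036) for Prc1, whose HCR call was lost with the interquartile range in the fit (0.44, adjusted p = 0.0587, and from 0.001 to 0.509 over the alternatives). They were 0.25 ± 0.09 in HCR (adjusted p = 0.0207) and 0.45 ± 0.09 in LCR (adjusted p = 8.46e-05) for Racgap1. The HCR call of Racgap1 was lost without HCR sham 0435 or HCR sham 0439 (adjusted p = 0.0526 and 0.0579) and without the 6 arrays with high muscle markers (adjusted p = 0.0934). Aurkb, aurora kinase B of the same complex as survivin, was the 1 mitotic gene that passed in neither line, although its HCR change had the largest size of the 35. Its intensity spread widely within every group, from 105.3 to 772.7 with a median of 361.3 on HCR smoke arrays, against 125.8 to 398.5 with a median of 176.9 on HCR sham arrays. It spread from 206.2 to 764.7 with a median of 357.1 on LCR smoke arrays, against 209.3 to 823.6 with a median of 315.7 on LCR sham arrays. Its changes of 0.60 ± 0.30 in HCR and 0.03 ± 0.30 in LCR did not pass (limma, adjusted p = 0.0954 and 0.937). In HCR it passed with median-centred arrays (0.69, adjusted p = 0.0453, and up to 0.627 over the alternatives), without HCR sham 0432 (adjusted p = 0.0493) and without HCR smoke 0416 (adjusted p = 0.0283).

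Mki67 encodes Ki-67, the protein that pathologists stain to count cycling cells. It had a lowest, median and highest intensity of 32.9, 53.8 and 86.0 on HCR smoke arrays, against 24.4, 41.0 and 51.4 on HCR sham arrays. It had 46.5, 68.9 and 100.2 on LCR smoke arrays, against 27.5, 38.8 and 44.8 on LCR sham arrays. Every LCR smoke array lay above every LCR sham array, while 7 of 12 HCR smoke arrays lay above every HCR sham array. Mki67 rose by 0.38 ± 0.12 in HCR (limma, adjusted p = 0.0104) and by 0.69 ± 0.12 in LCR (adjusted p = 1.83e-05). The HCR change was 0.34 without the 6 arrays with high muscle markers and did not pass (adjusted p = 0.0617), and 0.43 with the interquartile range in the fit, where it did not pass either (adjusted p = 0.0531).

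Counting groups that do not overlap gave the same contrast between classes. Every smoke array lay above every sham array for 4 of the 35 genes in HCR (1.58% of all genes), namely Ccna2, Plk1, Bub1b and Birc5. In LCR this held for 14 of the 35 (5.9% of all genes), of which 12 were mitotic and the other 2 were Ccne1 and Pcna. Ccna2, Plk1 and Bub1b did so in both lines. Of the members, 12 had more than 1 probe set, and all probe sets of a gene gave the same call for 9 of these 12 in HCR and 6 of 12 in LCR. The genes whose probe sets differed were Cdc20, Foxm1 and Kif11 in HCR, and Ccnd1, Cdc20, Cdk2, Foxm1, Mad2l1 and Ttk in LCR.

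The smoke change was larger (more positive) in LCR than in HCR for 31 of the 35 genes (88.6%), and for 20 of the 21 mitotic genes, against 57.8% of all genes. The exceptions were Ccnd1, Mcm3, Gmnn and Aurkb. Tested gene by gene, no member passed in limma's test of whether the LCR change exceeded the HCR change. Of the 35, 0 were called higher (1.52% of all genes) and 0 lower (0.352% of all genes). An unadjusted p under 0.05 was found for 11, a count not made over all genes. The median difference over the 35 genes was 0.11, against 0.02 over all genes. Aurka came closest, at 0.36 ± 0.10 (limma, adjusted p = 0.0519), followed by Mad2l1 at 0.30 ± 0.10 (adjusted p = 0.0875). Aurka passed under 6 of 12 other settings, where the adjusted p ran from 0.0078 to 0.395, and when any 1 of 11 of the 38 arrays was left out, where it ran from 0.0242 to 0.109. For Cdk1, Ccnb2 and Ube2c the differences were 0.33 ± 0.14, 0.36 ± 0.15 and 0.37 ± 0.16 (limma, adjusted p = 0.19, 0.187 and 0.207), and for Plk1 it was 0.05 ± 0.09 (adjusted p = 0.814). Of the 4 genes that passed in LCR and not in HCR, Cdk2, Foxm1, Aurka and Mad2l1, none was thereby shown to respond differently in the 2 lines.

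Between the lines under smoke, 33 of 35 genes were on average higher in LCR, with a median difference of 0.12 against 0.01 over all genes. Of the 35, 2 passed as higher (5.7%), a share near the 4.61% of all genes. None was lower past the threshold (1.7% of all genes lower). Mcm6, a helicase subunit, had a lowest, median and highest intensity of 55.8, 66.8 and 80.0 on LCR smoke arrays, against 43.4, 54.4 and 62.1 on HCR smoke arrays. It was higher in LCR by 0.22 ± 0.04 (limma, adjusted p = 0.00203, and from 0.000165 to 0.0144 over the alternatives). Under sham Mcm6 leaned the same way, with 53.2, 58.3 and 65.5 on LCR sham arrays, against 47.7, 52.1 and 55.1 on HCR sham arrays (0.15 ± 0.06, adjusted p = 0.129). Mad2l1, with the smoke values given above, was higher in LCR smoke than in HCR smoke by 0.22 ± 0.06 (limma, adjusted p = 0.0209), but not without the 6 arrays with high muscle markers (0.18, adjusted p = 0.101). Over its alternatives the adjusted p of Mad2l1 ran from 0.00902 to 0.133. In all, 16 of 35 genes had an unadjusted p under 0.05, and Mki67 at 0.33 ± 0.11 was next in line (limma, adjusted p = 0.052). Counts of unadjusted p, here and under sham, were not made over all genes. Under sham no member passed between LCR and HCR: 0 were called higher (1.39% of all genes) and 0 lower (2.34% of all genes) by limma, 6 had an unadjusted p under 0.05, and the lowest adjusted p was 0.102, for Gmnn, higher in LCR by 0.33 ± 0.12.

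The arrays of a group differed in their mitotic genes together. With each gene centred on its mean over all arrays, the mean of the 21 mitotic genes ran from -0.25 to 0.27 with a median of 0.10 on HCR smoke arrays, against -0.41 to -0.11 with a median of -0.20 on HCR sham arrays. It ran from 0.02 to 0.45 with a median of 0.22 on LCR smoke arrays, against -0.35 to -0.14 with a median of -0.29 on LCR sham arrays. The LCR ranges did not meet, and HCR smoke 0409 and 0419 (-0.25 and -0.17) lay within the HCR sham range. Those 2 arrays were the lowest of their group for 9 and 8 of the 21 genes. LCR smoke 0426 was the highest of its group for 12 of the 21 genes, with a mean of 0.45, and LCR smoke 0428 and 0420 were the lowest for 11 and 8.

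Many markers of macrophages moved with these genes. Of 18 markers 15 were measured. In HCR 10 rose and 3 fell (over all genes, 17.7% rose and 30.4% fell), and in LCR 12 rose and 2 fell (over all genes, 22.7% and 27.9%). Cd68, a lysosomal macrophage protein, rose by 1.09 ± 0.16 in HCR (limma, adjusted p = 1.41e-06) and by 1.80 ± 0.16 in LCR (adjusted p = 5.16e-11). The markers that fell were the surface proteins Adgre1 (-0.37 ± 0.12 in HCR and -0.45 ± 0.12 in LCR) and Cd163 (-0.77 ± 0.14 and -0.50 ± 0.14) in both lines, and in HCR Csf1r, the receptor for macrophage growth factor (-0.33 ± 0.08, and -0.14 ± 0.08 in LCR, where it did not pass). Their summed intensity was 11630 to 23080 on HCR smoke arrays, against 8198 to 12350 on HCR sham arrays, and 16600 to 22840 on LCR smoke arrays, against 6752 to 10400 on LCR sham arrays. No marker was at 0 on any array. HCR smoke 0409 and 0419, the arrays with low mitotic genes, had the lowest macrophage list means of their group (-0.16 and -0.35, against a group median of 0.34). LCR smoke 0426, highest in mitotic genes, had the highest (0.86, against a group median of 0.36), and LCR smoke 0420 the lowest (0.02). LCR smoke 0428, which had the lowest mitotic mean of its group, lay near the group median in macrophage markers (0.30). Another departure was HCR sham 0433, lowest in mitotic genes (-0.41) and highest of its group in macrophage markers (-0.06), an array that also carried skeletal muscle markers (list mean 4.58).

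With the macrophage list mean of each array as a covariate, 1 member (Plk1) was higher and 4 (Mcm7, Rrm1, Tyms and Aurka) were lower in HCR, and 0 were higher or lower in LCR by limma, where 5 had an unadjusted p under 0.05 (Plk1 higher, Mcm3, Rrm1, Prc1 and Racgap1 lower). Over all 14217 genes 1017 were higher and 2751 lower in HCR with it, so members were called no more often there than all genes. The covariate separates LCR smoke arrays from LCR sham arrays, and calls over all genes fell to 3768 in HCR, against 6830 without the covariate, and to 212 in LCR, against 7193. Smoke and this covariate therefore cannot be told apart in LCR, and the part of macrophages in the members' changes was not tested otherwise. Some markers of other cells passed too (over all genes, 17.7% rose and 30.4% fell in HCR, and 22.7% and 27.9% in LCR). Of 7 neutrophil markers, 4 rose in HCR and 5 in LCR. Of 13 T and NK cell markers, 6 fell in LCR and 1 rose in HCR. Of 8 B and plasma cell markers, 7 fell in LCR and 1 in HCR. Of 10 type 2 cell markers, 3 rose and 1 fell in HCR and 7 rose in LCR. Of 6 red cell and bone marrow markers, 1 rose and 1 fell in HCR and 3 rose in LCR. In HCR the shares of T and NK, B and plasma, and red cell and bone marrow markers that passed were no larger than those of all genes. The part of these other cells in the results was not tested.

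**Figure D4:**
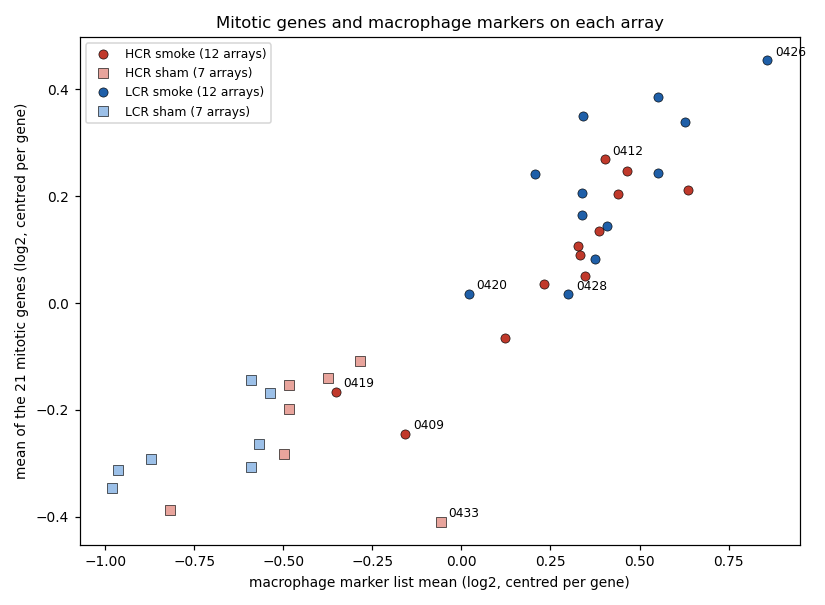
Mean of the 21 mitotic genes against the macrophage marker list mean on each of the 38 arrays, both as log2 values centred per gene. LCR smoke arrays (dark blue) lie apart from LCR sham arrays (light blue) on both axes, HCR smoke 0409 and 0419 lie with the sham arrays, and HCR sham 0433 has the lowest mitotic mean.

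Other genes of the pathway were taken from lists written from textbook knowledge, with earlier results of these data known. Their counts are therefore not independent support for those of the members. Of 53 further genes of mitosis and cytokinesis, 36 rose (67.9%) and none fell in HCR, with a median of 0.19. Of all genes, 17.7% rose and 30.4% fell there. In LCR 39 rose (73.6%) and 2 (Cenpf and Gtse1) fell, with a median of 0.27, against 22.7% and 27.9% of all genes. Cks2, a small subunit of CDK complexes, had medians of 106.8 on HCR smoke and 45.4 on HCR sham arrays, and of 122.0 on LCR smoke and 39.7 on LCR sham arrays, with changes of 0.90 ± 0.13 (limma, adjusted p = 1.06e-06) and 1.27 ± 0.13 (adjusted p = 7.79e-10). Its relative Cks1b rose by 0.36 ± 0.07 and 0.58 ± 0.07. Cdca3, a trigger of mitotic entry, rose by 0.60 ± 0.09 in HCR and 0.84 ± 0.09 in LCR, and Ect2, the RhoA activator of cytokinesis, by 0.51 ± 0.11 and 0.94 ± 0.11. Nuf2 of the kinetochore (0.38 ± 0.07 and 0.50 ± 0.07) and Ncaph of condensin (0.40 ± 0.08 and 0.47 ± 0.08) rose in both lines as well.

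Of 40 further genes of licensing, replication and S phase, 11 rose (27.5%) and 11 fell (27.5%) in HCR, with a median of -0.04, against 17.7% and 30.4% of all genes. In LCR 13 rose (32.5%) and 10 fell (25.0%), with a median of 0.03, against 22.7% and 27.9% of all genes. The shares that fell were thus near those of all genes. Among the falls were Pold1 and Pold2, subunits of DNA polymerase delta, and Rfc1, the large subunit of the clamp loader that places PCNA on DNA. Pold1 had medians of 59.6 on HCR smoke and 84.8 on HCR sham arrays, and of 61.0 on LCR smoke and 89.7 on LCR sham arrays, and the highest smoke array of each line lay below the lowest sham array. The changes of Pold1 were -0.45 ± 0.06 in HCR and -0.43 ± 0.06 in LCR (limma, adjusted p = 8.38e-08 and 8.4e-08), those of Pold2 were -0.49 ± 0.07 and -0.31 ± 0.07, and those of Rfc1 were -0.38 ± 0.06 and -0.42 ± 0.06. Dut, which clears dUTP, fell by 0.15 ± 0.06 in HCR and by 0.39 ± 0.06 in LCR on the log2 scale. A pair of genes stood out on the other side: Slbp, which binds histone mRNA, rose by 1.01 ± 0.16 in HCR and 0.67 ± 0.16 in LCR, and Pclaf, a PCNA-binding factor, by 0.67 ± 0.13 and 0.87 ± 0.13.

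Of 15 G1 to S regulators 6 rose (40.0%) and 4 fell (26.7%) in HCR, against 17.7% and 30.4% of all genes. In LCR 6 rose (40.0%) and 2 fell (13.3%), against 22.7% and 27.9% of all genes. The share that fell in HCR was near that of all genes. Myc, a transcription factor that answers growth signals, had medians of 240.2 on HCR smoke and 183.8 on HCR sham arrays, and of 261.2 on LCR smoke and 137.7 on LCR sham arrays, with changes of 0.49 ± 0.11 (limma, adjusted p = 0.000453) and 0.83 ± 0.11 (adjusted p = 1.72e-07). Cdc25a, a phosphatase that activates CDKs, rose by 0.18 ± 0.05 and 0.23 ± 0.05, Ccnh, cyclin H of the CDK-activating kinase, by 0.15 ± 0.04 and 0.35 ± 0.04, and the repressor E2f7 by 0.17 ± 0.04 and 0.13 ± 0.04. Tfdp2, a partner of E2F proteins, fell by 0.66 ± 0.09 in HCR and 0.63 ± 0.09 in LCR on the log2 scale.

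Of 24 brakes, 4 rose (16.7%) and 8 fell (33.3%) in HCR, shares near the 17.7% and 30.4% of all genes. In LCR 9 rose (37.5%) and 4 fell (16.7%), against 22.7% and 27.9% of all genes. Cdkn1c, the CDK inhibitor p57, had medians of 274.9 on HCR smoke and 486.3 on HCR sham arrays, and of 336.4 on LCR smoke and 618.3 on LCR sham arrays, and it fell by 0.89 ± 0.13 (limma, adjusted p = 1.89e-06) and 0.81 ± 0.13 (adjusted p = 5.45e-06) on the log2 scale. Rbl2, the pocket protein p130 of the DREAM complex, fell by 0.38 ± 0.07 in HCR and by 0.51 ± 0.07 in LCR, while its relative Rbl1, p107, rose by 0.31 ± 0.07 and 0.39 ± 0.07. Cdkn1a, the CDK inhibitor p21, fell in HCR by 0.34 ± 0.14 (limma, adjusted p = 0.0393) and did not pass in LCR (0.15 ± 0.14, adjusted p = 0.37). Also lower in HCR were Cdkn2b, Cdkn2c, Tob2, Gadd45a and Gadd45b, by 0.41, 0.21, 0.21, 0.23 and 0.39 on the log2 scale. Also lower in LCR were Cdkn1b, the inhibitor p27, and Btg1, with changes of -0.20 and -0.07.

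The kinases that hold CDK1 in check rose alongside it: Wee1 by 0.47 ± 0.10 in HCR and 0.25 ± 0.10 in LCR, and Pkmyt1 by 0.30 ± 0.06 and 0.28 ± 0.06. E2f5 rose by 0.13 ± 0.04 and 0.25 ± 0.04. Cdkn2a, E2f4, E2f6, Btg3 and Gadd45g rose in LCR by 0.34, 0.14, 0.19, 0.27 and 0.83, and did not pass in HCR. No gene of these 4 lists passed the test of a line-dependent smoke change, of which Ccnh had the lowest adjusted p (0.0624). Under smoke, 4 of 40 replication genes (Cdt1, Orc6, Fen1 and Rpa2) and 2 of 53 mitosis genes (Cdca8 and Ect2) were higher in LCR than in HCR. Of 15 G1 to S regulators 1 was higher (Ccnd3) and 1 lower (Tfdp2), and of 24 brakes 1 was higher (Cdkn2a) and 1 lower (Tob1). Over all genes 4.61% were higher and 1.7% lower. Under sham, Cenpf was higher and Kif15 lower of the 53 mitosis genes, and Prim1 lower of the 40 replication genes (over all genes, 1.39% higher and 2.34% lower). Calls this few are not read as a result about the lists.

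**Figure D5:**
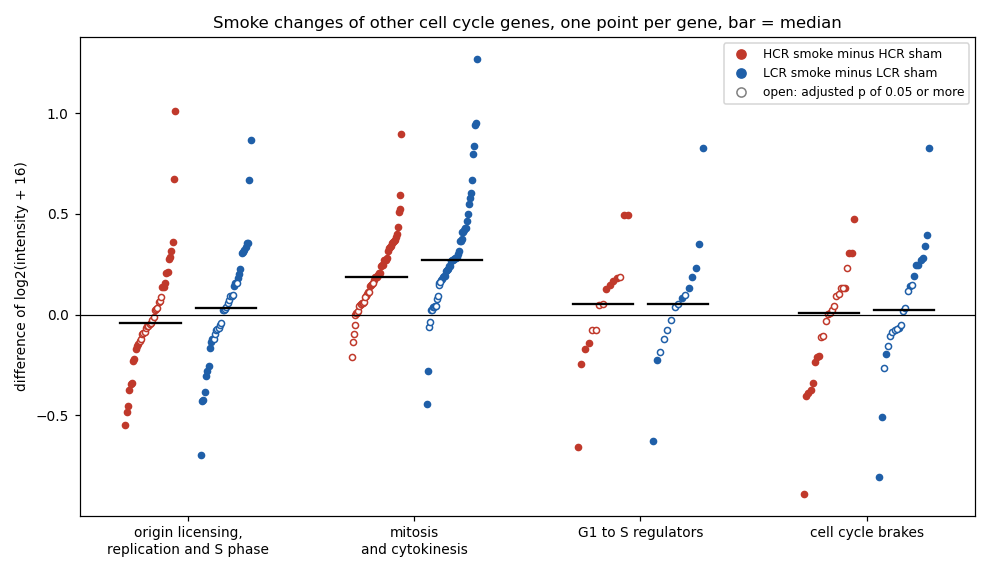
Smoke changes of the other cell cycle genes, by list, as differences of log2(intensity + 16). Each point is a gene, red for HCR smoke minus HCR sham and blue for LCR smoke minus LCR sham, open where the adjusted p was 0.05 or more, with bars at the list medians. The mitosis list lies mostly above 0 in both lines (medians 0.19 and 0.27), and the replication list straddles 0 (medians -0.04 and 0.03).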

How the data were processed

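RNA of whole lung from 38 rats was measured on 1 array each. The authors deposited 1 linear intensity per probe set and array, from 2.09 to 11558. The summarisation and normalization are not given in the sources used here, and no background flags were used. Of 31099 probe sets, 57 were controls, 20826 had 1 gene symbol, 436 several and 9780 none, from GEO's platform annotation. RefSeq's gene table held 20758 of their IDs and changed 0 symbols. The probe set with the highest mean represented each of 14217 genes.

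From the deposited intensities, log2(intensity + 16) was computed and fitted with limma 3.58.1 (R 4.3.3) as 4 group means, which left 34 residual degrees of freedom. Benjamini-Hochberg adjustment ran over all genes, and 0.05 was the threshold. The contrasts were smoke minus sham in each line, LCR minus HCR under each exposure, and the difference between the smoke changes. Tables and figures used Python 3.11.15, NumPy 2.4.6, pandas 2.3.3 and matplotlib 3.10.9. The fit was tested on simulated data. A log2 change of 0.25 was recovered in 34% of cases in the test of a line-dependent smoke change, and in 56% to 76% in the other contrasts. For a change of 0.5 the recovery was 85% to 93%. False calls made up 2.82% to 8.24% of the calls. Far fewer genes were changed in each simulated contrast (50 by 0.25 and 100 by 0.5, for example) than were called for smoke. Those calls were 6830 in HCR and 7193 in LCR. The simulated noise was also drawn for each gene on its own. These rates therefore need not hold for the smoke contrasts. Arrays correlated at 0.962 to 0.997, and any 2 shared at most 0.0611% identical values. The number of arrays limits the precision.

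All members are named, and full values are given for up to 4 genes of a role, those with the smallest p, for the genes passing between the lines and for Mki67. Aurka, Aurkb and the pathway genes named with values were picked with their values in view. Members and lists were chosen with earlier results of these data known. Alternatives covered normalization, centring, low values, probe sets, pseudocount, groups fitted, variance model, weights, covariates and arrays left out.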

Additional observations from a re-analysis of the deposited data

Results flagged for a closer look

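In 6 of 70 sham groups of member genes (8.57%), 1 array lay far from the other 6 on the log2(intensity + 16) scale. Chance gives such a gap in about 1 in 20 groups. LCR sham 0443 accounted for 3 of them. It was high for Ccnd1, cyclin D1 (11.07, nearest array 10.84), and for Cdk1, the mitotic kinase (6.04, nearest 5.83), and low for Plk1, the polo kinase (5.67, nearest 5.83). LCR sham 0446 was low for Mcm2, a helicase subunit (6.74, nearest 6.88). HCR sham 0433, which carried muscle markers, was low for Ccna2, cyclin A2 (4.46, nearest 4.68), and HCR sham 0439 was low for Bub1, a checkpoint kinase (5.08, nearest 5.31). All 12 LCR smoke arrays lay above all LCR sham arrays for Cdk1 and Plk1, all 12 HCR smoke arrays above all HCR sham arrays for Ccna2, and 8 of 12 for Bub1, with the named arrays included.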

How the results depend on the processing

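No paired analysis was possible because the array numbers are not shared between groups. Besides leaving out each of the 38 arrays, 13 alternatives were run; counting probe sets of several symbols was not run as a fit. Where a count or direction moved, the cause was not tested, except that the intensity minimum of 50 leaves 21 members to test. Of these 10 rose and 1 fell in HCR and 11 rose in LCR. Of the 9620 genes then tested, 1347 rose and 3780 fell in HCR, and 2122 rose and 3356 fell in LCR. With the macrophage list mean as a covariate, 1 rose and 4 fell in HCR and 0 rose in LCR (of 14217 genes, 1017 rose and 2751 fell in HCR and 82 rose in LCR). Under it the changes of Ccnb2, Ttk, Nusap1, Prc1, Racgap1 and Mki67 were -0.065, -0.001, -0.045, -0.13, -0.18 and -0.08 in HCR, and those of Ccnb2, Aurka, Ttk, Kif11, Nusap1, Prc1, Racgap1 and Mki67 were -0.007, -0.031, -0.001, -0.061, -0.009, -0.45, -0.26 and -0.07 in LCR. With the interquartile range as a covariate 0 fell in HCR (1610 of 14217 genes fell), where Bub1b, Cdc20, Top2a, Prc1 and Mki67 no longer passed. Mcm2 was higher there (0.17, limma, adjusted p = 0.0419, and 0.0419 to 0.939 over its alternatives). That range separates HCR smoke from HCR sham arrays, so smoke and this covariate cannot be told apart in HCR. In HCR 1 fell with median-centred arrays, and in LCR 1 (Ccnd1) fell with only those 2 groups fitted. Between LCR and HCR under smoke, 10 members were higher with array weights. Over all 14217 genes 1934 were higher with weights, against 656 without, so the weights raised the calls over all genes as well. With the mean of probe sets 4 members were higher (741 of all genes). The count was 1 with only the 2 groups fitted, with the interquartile range or macrophage covariate, or without the 6 arrays with high muscle markers (592, 199, 379 and 286 of all genes). Under sham 1 was higher with median-centred arrays, the mean of probe sets, or the interquartile range, Gapdh or macrophage covariate, and 1 was lower with the interquartile range. The smoke change was larger in LCR for 2 members with array weights (1173 of all genes, against 216 without weights). It was larger for 1 member with quantile normalization, median-centred arrays, the intensity minimum, or the Gapdh or Actb covariate (180, 124, 260, 397 and 470 of all genes tested). These counts are not read as a result about the members. With 1 array left out, 19 to 23 rose and 2 fell in HCR, 23 to 26 rose in LCR, 2 to 7 were higher in LCR under smoke and 0 to 1 under sham, and 0 to 2 differed in their smoke change. The 7 came without LCR smoke 0420 or 0428, 5 without HCR smoke 0412 and 4 without 0418, the 2 without LCR smoke 0420, and the 1 under sham without HCR sham 0432. Dim members are limited by signal, since 14 of 35 averaged under 50.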
